A study of Mus musculus with 12 samples.

Results

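The level of Ttr, the transcript of transthyretin, differed widely between the 6 mouse hippocampi of the miR-9 sponge experiment, and it differed within each treatment group. The 6 mice were therefore placed on 2 sides by that level. The members of each side were chosen by their Ttr reads per 1000000 reads on transcripts (CPM), with more than 150 CPM on the Ttr-high side and less on the Ttr-low side. Each side held 3 mice, out of 12 mice in the whole series. All other transcripts were then compared between the sides, to describe what travelled with Ttr.

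The study injected AAV5 vectors into the hippocampus of adult male C57BL/6 mice, on both sides of the brain, and sequenced RNA from whole, freshly frozen hippocampi, 1 mouse per sample. In the miR-9 experiment, 3 mice received GFP-miR-9sp, a GFP transcript with a sponge sequence that sequesters miR-9, and 3 received GFP only (GFP Ctrl). The miR-34 experiment had 3 GFP-miR-34sp and 3 GFP Ctrl mice. All vectors carried the synapsin promoter, which is active in neurons, so that other cells of the tissue were not meant to express them. The Ttr-high side consisted of 1 GFP-miR-9sp mouse (17) and 2 GFP Ctrl mice (2 and 16). The Ttr-low side consisted of 1 GFP Ctrl mouse (8) and 2 GFP-miR-9sp mice (23 and 9). The labels call the cell type hippocampal neurons, but transcripts of astrocytes (Gfap), oligodendrocytes (Mbp), microglia (P2ry12) and endothelium (Cldn5) were present in all 6 mice, as in whole tissue. Total reads on transcripts ranged from 17279620 to 24428477 in the 6 mice.

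The choroid plexus is a fringe of epithelium around fenestrated vessels and stroma that hangs in the ventricles and secretes cerebrospinal fluid. In the lateral ventricle it lies against the fimbria of the hippocampus, so that a dissected hippocampus can carry pieces of it. Its epithelial cells make transthyretin, a carrier of thyroxine and retinol-binding protein, in very large amounts. The same cells hold water channels, ion pumps and bicarbonate transporters that drive secretion, tight junctions that form the blood-cerebrospinal fluid barrier, and receptors for hormones.

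Ttr, which defined the sides, stood at 763 CPM in GFP-miR-9sp 17, 650 CPM in GFP Ctrl 2 and 236 CPM in GFP Ctrl 16. It stood at 81.4 CPM in GFP Ctrl 8, 21.1 CPM in GFP-miR-9sp 23 and 16.01 CPM in GFP-miR-9sp 9. The mean was 550 ± 277 CPM on the high side and 39.5 ± 36.4 CPM on the low side (SD, n = 3 mice each), a ratio of 13.9. The members nearest to the limit were GFP Ctrl 16, just inside, and GFP Ctrl 8, just outside. Because these values chose the mice, they are a description and were not tested. In all sentences that follow, values by mouse are given in this order of falling Ttr, with the 3 Ttr-high mice first.

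**Figure D1:**
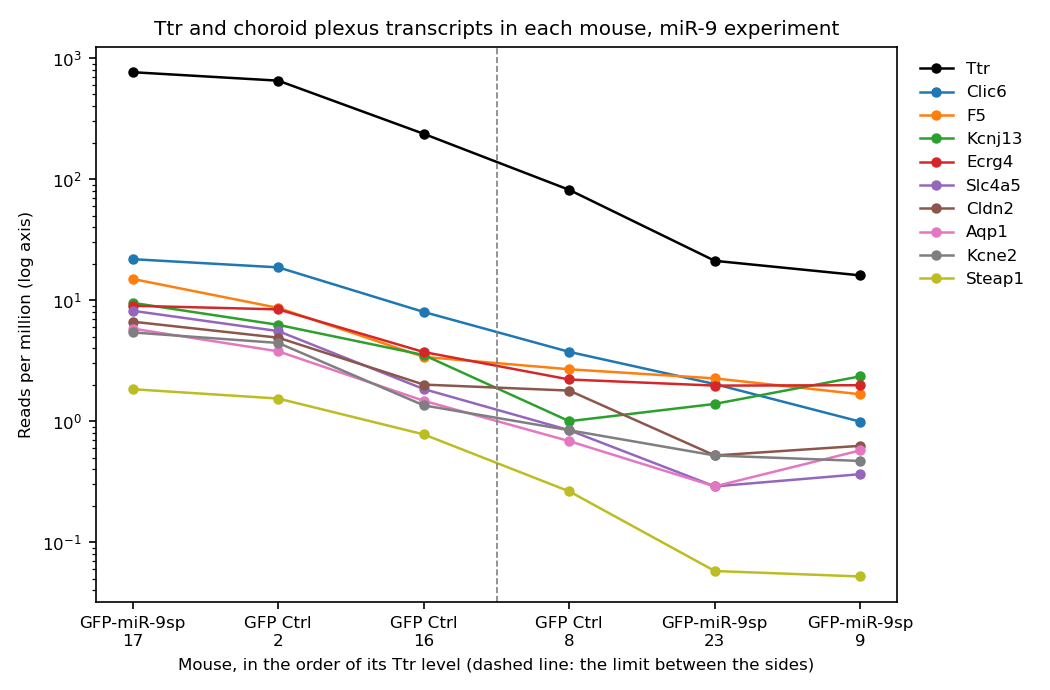
Level in CPM on a log axis (y) of Ttr and 9 transcripts of the choroid plexus epithelium in each of the 6 mice of the miR-9 experiment (x), ordered by falling Ttr; each point is 1 mouse and the dashed line separates Ttr-high from Ttr-low. Clic6 falls from 21.8 to 0.991 and Aqp1 from 5.82 to 0.574 between the first and the last mouse.

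Across all 13438 other transcripts that passed the filter on low values (a mean of more than 10 scaled reads), edgeR's quasi-likelihood test with treatment as a term called 0 higher (percent called 0) and 0 lower (percent called 0) at an adjusted p under 0.05. The smallest adjusted p was 0.0588. At an unadjusted p under 0.05 the same test had 442 transcripts (3.29%) higher and 265 (1.97%) lower in Ttr-high mice. Scaling to total reads alone gave 538 and 192, so the split between the directions depended on the scaling. DESeq2 called 21 higher (0.156%) and 0 lower at an adjusted p under 0.05. An edgeR fit with the log2 Ttr level of each mouse in place of the 2 sides called 23 higher with Ttr (0.171%) and 1 lower (0.00744%), the transcription factor Onecut2. For each transcript described below, a call in either of these fits is stated, but not every called transcript is described. No transcript passed the main test.

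The choroid plexus lists held 74 genes of the epithelium, of which 72 matched an entry, 50 passed the filter and 22 did not. Of the 50, 47 had a higher fitted level in Ttr-high mice, with a median log2 fold change of 0.47 beside -0.00 for all transcripts tested. In 24 of the 50, every Ttr-high mouse lay above every Ttr-low mouse, where 8.19% of all transcripts did so. None of the 50 lay below in this way (2.75% of all transcripts). On TMM-scaled reads the backgrounds were 6.1% above and 4.75% below, and 23 of the 50 members lay above. At an unadjusted p under 0.05, 29 were higher and 0 lower, beside 3.29% and 1.97% of all transcripts. Without GFP-miR-9sp 17, the mouse with the most Ttr, 43 of 49 tested were higher (50.7% of all transcripts), with a median log2 fold change of 0.34. Both GFP-miR-9sp mice left were then Ttr-low. With treatment as a term, that fit therefore compared GFP Ctrl 2 and 16 with GFP Ctrl 8 alone. Of the 21 transcripts DESeq2 called, 8 were list members, and of the 23 that followed Ttr in the continuous fit, 18 were. The 8 members called by DESeq2 were also called by the continuous fit. Of the 41 transcripts with a log2 fold change above 1 (0.305%), 17 were list members, and the 4 with a log2 fold change below -1 (0.0298%), Cpeb3, Mat1a, Xlr3a and Xlr3c, were not. A member read mostly on the Ttr-high side can pass the filter through that side alone and then has to differ. This held for 3 members, Krt8, Steap1 and Tmem72, which had a mean of more than 10 scaled reads only in Ttr-high mice. Of the other 47, 44 were higher (median 0.38), 22 lay above without overlap (8.08% of the 13237 transcripts with such a mean on both sides) and 26 were higher at an unadjusted p under 0.05 (3.2%). DESeq2 called 7 of the 47 and the continuous fit 16, beside 20 and 21 of all 13237 transcripts in either direction. Of the 13237 transcripts with such a mean on both sides, 27 had a log2 fold change above 1, and 14 of these 27 were list members. In bulk tissue, fewer choroid plexus cells and less RNA per cell cannot be told apart.

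Since these members varied together, the promoters of the 4 choroid list members of smallest p that the reference held are shown. Each is the stretch from 250 bases before to 50 bases after the gene's start in RefSeq (GRCm38.p6), on the gene's own strand. They are Kcnj13 at chr1:87394680-87394979 (minus strand), Aqp1 at chr6:55336049-55336348 (plus strand), Slc4a5 at chr6:83237125-83237424 (plus strand) and Steap1 at chr5:5749268-5749567 (minus strand). Capitals mark matches to TAATCC, bound by the choroid plexus factor OTX2, or to GTTGCC, part of the X-box of the RFX factors of ciliated cells, on either strand.
Kcnj13: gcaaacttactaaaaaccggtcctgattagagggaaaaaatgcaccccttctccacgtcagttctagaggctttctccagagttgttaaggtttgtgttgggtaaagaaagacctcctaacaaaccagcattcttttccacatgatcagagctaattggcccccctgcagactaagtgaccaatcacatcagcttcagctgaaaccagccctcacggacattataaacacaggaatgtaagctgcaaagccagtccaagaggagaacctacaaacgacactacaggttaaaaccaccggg
Aqp1: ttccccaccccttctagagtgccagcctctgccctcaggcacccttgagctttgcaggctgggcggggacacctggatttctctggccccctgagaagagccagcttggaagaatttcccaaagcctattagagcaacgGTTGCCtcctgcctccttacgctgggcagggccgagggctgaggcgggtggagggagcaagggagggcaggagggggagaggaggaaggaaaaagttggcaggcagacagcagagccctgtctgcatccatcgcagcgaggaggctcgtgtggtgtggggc
Slc4a5: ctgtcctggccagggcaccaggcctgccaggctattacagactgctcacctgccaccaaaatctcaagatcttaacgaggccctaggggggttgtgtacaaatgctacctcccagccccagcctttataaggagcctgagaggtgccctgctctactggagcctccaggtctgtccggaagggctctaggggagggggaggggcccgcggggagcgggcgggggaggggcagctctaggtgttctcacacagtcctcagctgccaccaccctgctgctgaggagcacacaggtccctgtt
Steap1: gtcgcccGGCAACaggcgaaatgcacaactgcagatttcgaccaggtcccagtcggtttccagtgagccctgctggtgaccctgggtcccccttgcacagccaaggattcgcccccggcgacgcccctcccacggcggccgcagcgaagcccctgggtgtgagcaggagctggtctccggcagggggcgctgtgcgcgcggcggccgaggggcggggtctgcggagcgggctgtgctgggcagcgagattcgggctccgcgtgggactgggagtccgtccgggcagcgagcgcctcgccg
GTTGCC was found in the Aqp1 promoter at position 140 and, as GGCAAC, in the Steap1 promoter at position 8, counted from the first base shown. Neither motif was found in the Kcnj13 or the Slc4a5 window. Of 32851 promoters of this length, 12.5% held GTTGCC and 7.06% held TAATCC. Of the 38 tested choroid members with an entry, 5 (13.2%) and 1 (2.63%) did. A match is a description of letters and not a bound site.

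Among the transporters and channels, which move water and ions into the ventricle, 20 of 26 passed the filter. Their median log2 fold change was 0.74, with 10 at an unadjusted p under 0.05 in the higher direction (3.29% of all transcripts) and 0 in the lower (1.97%). Steap1 among them passed the filter only through the Ttr-high mice. The other 19 had a median of 0.65, with 9 higher under that limit (3.2% of transcripts with more than 10 scaled reads on both sides). Kcnj13, an inward rectifier potassium channel of the apical membrane, had 9.49, 6.25 and 3.52 CPM in the Ttr-high mice and 1.00, 1.39 and 2.35 CPM in the Ttr-low mice. The sides did not overlap, and the log2 fold change was 2.29 ± 0.28 (SE; edgeR adjusted p = 0.0638). It was called by DESeq2 (adjusted p = 6.3e-08) and by the continuous Ttr fit of edgeR (adjusted p = 0.0285).

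Clic6, a chloride channel protein, followed Ttr in exact order, with 21.8, 18.6 and 7.98 CPM against 3.74, 2.03 and 0.991 CPM. Its log2 fold change was 2.86 ± 0.47 (SE; edgeR adjusted p = 0.222 between the sides, and 3.99e-05 against the Ttr level). Aqp1, the water channel of the epithelium, had 5.82, 3.78 and 1.47 CPM against 0.684, 0.289 and 0.574 CPM. The edgeR values for Aqp1 were a log2 fold change of 3.01 ± 0.49 (SE) and adjusted p = 0.222 between the sides, and adjusted p = 0.00149 against the Ttr level. DESeq2 called it as well (adjusted p = 0.000196).

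Slc4a5, a sodium bicarbonate cotransporter, had 8.17, 5.55 and 1.84 CPM against 0.842, 0.289 and 0.365 CPM. This was a log2 fold change of 3.52 ± 0.59 (SE; edgeR adjusted p = 0.222, and 0.000133 against the Ttr level). Kcne2, a potassium channel subunit, also kept the order of Ttr throughout, with 5.41, 4.43 and 1.35 CPM against 0.842, 0.521 and 0.469 CPM. Its log2 fold change was 2.72 ± 0.54 (SE; edgeR adjusted p = 0.311). Both DESeq2 (adjusted p = 0.0016) and the continuous fit of edgeR (adjusted p = 0.00239) called Kcne2. In all of these, GFP Ctrl 16 was the lowest of the Ttr-high mice, as it was for Ttr.

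Steap1, a membrane protein of the STEAP family, passed the filter only through the Ttr-high mice: 36, 33 and 19 reads in the Ttr-high mice and 5, 1 and 1 reads in the Ttr-low mice. It was called by DESeq2 (adjusted p = 0.031) and by the continuous fit of edgeR (adjusted p = 0.00345). Its higher level in Ttr-high mice was fixed by the filter, so these calls are given as values only. Abca4, a lipid transporter, had 8.27, 6.20 and 4.46 CPM against 2.89, 2.37 and 3.39 CPM and was called by both fits too (adjusted p = 0.0122 in DESeq2 and 0.0264 in edgeR). Slc2a12, a glucose transporter, was called by the continuous fit of edgeR alone (adjusted p = 0.0248), with a log2 fold change between the sides of 0.82 ± 0.17 (SE). In contrast to these graded members, the transporters of highest count overlapped between the sides. Atp2b3, a calcium pump also made by neurons, had 477, 480 and 460 CPM against 451, 520 and 460 CPM. Slc12a2, the NKCC1 cotransporter, had 142, 146 and 158 CPM against 154, 152 and 137 CPM. The log2 fold changes (-0.00 and -0.03) were smaller than their SE of 0.06. Car12, a carbonic anhydrase, had 71.8, 82.7 and 62.8 CPM against 57.0, 69.3 and 48.5 CPM, also with overlap (log2 fold change 0.30 ± 0.15 SE, edgeR adjusted p = 0.931).

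Secreted proteins other than Ttr formed the next group, with 14 of 20 tested and a median log2 fold change of 0.59. Of these, 9 were higher and 0 lower at an unadjusted p under 0.05 (3.29% and 1.97% of all transcripts), and 6 lay above without overlap (8.19%). F5, coagulation factor V, had 14.95, 8.62 and 3.40 CPM against 2.68, 2.26 and 1.67 CPM. This kept the exact order of Ttr, with a log2 fold change of 2.18 ± 0.43 (SE; edgeR adjusted p = 0.311 between the sides, and 0.000609 against the Ttr level). Ecrg4, a precursor of secreted peptides, had 8.98, 8.39 and 3.73 CPM against 2.21, 1.97 and 1.98 CPM and was called by DESeq2 (adjusted p = 0.000196) and by the continuous fit of edgeR (adjusted p = 0.0057).

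Lbp, which binds lipopolysaccharide, had 10.0, 8.90 and 5.85 CPM against 4.21, 3.88 and 3.55 CPM. Its log2 fold change was 1.12 ± 0.20 (SE), and both DESeq2 (adjusted p = 0.00896) and the continuous fit of edgeR (adjusted p = 0.0057) called it. Igfbp2, a binding protein of insulin-like growth factors, had 46.6, 44.8 and 34.5 CPM against 30.2, 26.5 and 29.9 CPM, and was called by DESeq2 (adjusted p = 0.014) and by the continuous fit of edgeR (adjusted p = 0.0227). Kl, the ageing-related hormone coreceptor klotho, had 75.9, 62.7 and 41.0 CPM against 35.6, 43.2 and 33.3 CPM. For Kl the sides overlapped, since GFP-miR-9sp 23 lay above GFP Ctrl 16, and only the continuous fit of edgeR called it (adjusted p = 0.0186). Col9a3 and Sostdc1 were called by the continuous fit of edgeR alone (adjusted p = 0.0105 and 0.0285). Enpp2, which makes lysophosphatidic acid, overlapped between the sides (log2 fold change -0.06).

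Receptors, junction proteins and cytoskeleton had 12 of 20 members tested. All 12 had a positive log2 fold change, with a median of 0.31, and 8 lay above without overlap (8.19% of all transcripts), or 7 on TMM-scaled reads (6.1%). Krt8 and Tmem72 passed the filter only through the Ttr-high mice. The other 10 were all positive with a median of 0.26, and 7 of them lay above (8.08% of transcripts with more than 10 scaled reads on both sides). Prlr, the prolactin receptor, had 28.3, 20.9 and 12.5 CPM against 9.68, 9.32 and 7.20 CPM, again in the order of Ttr. Its log2 fold change was 1.30 ± 0.25 (SE; edgeR adjusted p = 0.259 between the sides, and 0.000609 against the Ttr level). Cldn2, a tight junction claudin that forms a cation pore, had 6.63, 4.89 and 2.01 CPM against 1.79, 0.521 and 0.626 CPM. It was called against the Ttr level (edgeR adjusted p = 0.00252), and so was Tmem72, a membrane protein (edgeR adjusted p = 0.00811). Tmem72 had 4.44, 2.19 and 0.942 CPM against 0.789, 0.0579 and 0.261 CPM. It passed the filter only through the Ttr-high mice, which fixed its direction. Htr2c, the serotonin 2C receptor, which neurons carry as well, had 112, 110 and 109 CPM against 98.5, 89.9 and 90.0 CPM. The sides of Htr2c did not overlap, but its log2 fold change was only 0.22 ± 0.05 (SE; edgeR adjusted p = 0.313). Ezr, which links membrane and actin, and Cab39l, a kinase scaffold, likewise lay above without overlap at small folds (log2 0.15 ± 0.05 and 0.19 ± 0.06 SE), and neither was called by any of the 3 fits. For Ezr the nearest mice had 89.69 CPM (GFP Ctrl 16) and 89.66 CPM (GFP-miR-9sp 9). On TMM-scaled reads the sides of Ezr overlapped.

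Of 8 transcription factors, 4 were tested and none was called by any of the 3 fits. Zfp423, a zinc finger factor, had 38.5, 41.8 and 41.9 CPM against 32.9, 33.6 and 32.9 CPM (log2 fold change 0.27 ± 0.06 SE, edgeR adjusted p = 0.457). Zic2, a factor of the dorsal midline, had 40.8, 36.8 and 32.3 CPM against 30.3, 25.3 and 30.9 CPM. Otx2, which specifies the epithelium, had at most 0.0819 CPM in any of the 6 mice and was not tested.

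Reads were counted per transcript entry, and the number of entries moved with whether a gene was measured. All 6 choroid genes with 0 reads in all 6 mice (Folr1, Vegfa, Slc4a10, Slco1a5, Cdh3 and Mfrp) have 2 or more RefSeq transcript entries. They are 30% of the 20 choroid genes with 2 or more entries. Over all symbols, 25.1% of those with 2 or more entries and 20.3% of those with 1 had 0 reads, so these shares lie near each other. Of the 20 choroid genes with 2 or more entries, 14 were not tested, and of the 52 with 1 entry, 8 were not. Over all symbols the median over the 6 mice was 20 reads for genes with 2 or more entries and 274 for genes with 1. A listed 0 is therefore not read as absence. A further 16 members with reads, Otx2 among them, fell under the filter. Wfdc2, a secreted protease inhibitor, had 0.919, 0.839 and 0.327 CPM against 0.0526, 0.174 and 0 CPM.

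Ratios to Ttr are a description only, since Ttr chose the sides and a low Ttr level raises them. Per 1000 Ttr reads, Clic6 had 28.6, 28.7 and 33.8 reads in the Ttr-high mice and 45.9, 95.9 and 61.9 reads in the Ttr-low mice. Aqp1 had 7.62, 5.81 and 6.24 against 8.40, 13.7 and 35.8 reads per 1000 Ttr reads. Both ratios were close among the 3 Ttr-high mice and larger in the 2 mice with the least Ttr, where Aqp1 rested on 5 and 11 reads. Kcnj13 had 12.4, 9.61 and 14.9 against 12.3, 65.8 and 147 reads per 1000 Ttr reads. The order in which the 6 mice fall by Ttr was shared exactly by 6 of the 50 choroid members (Clic6, Kcne2, Steap1, F5, Lbp and Prlr), and by 29 of all transcripts tested (0.216%).

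**Figure D2:**
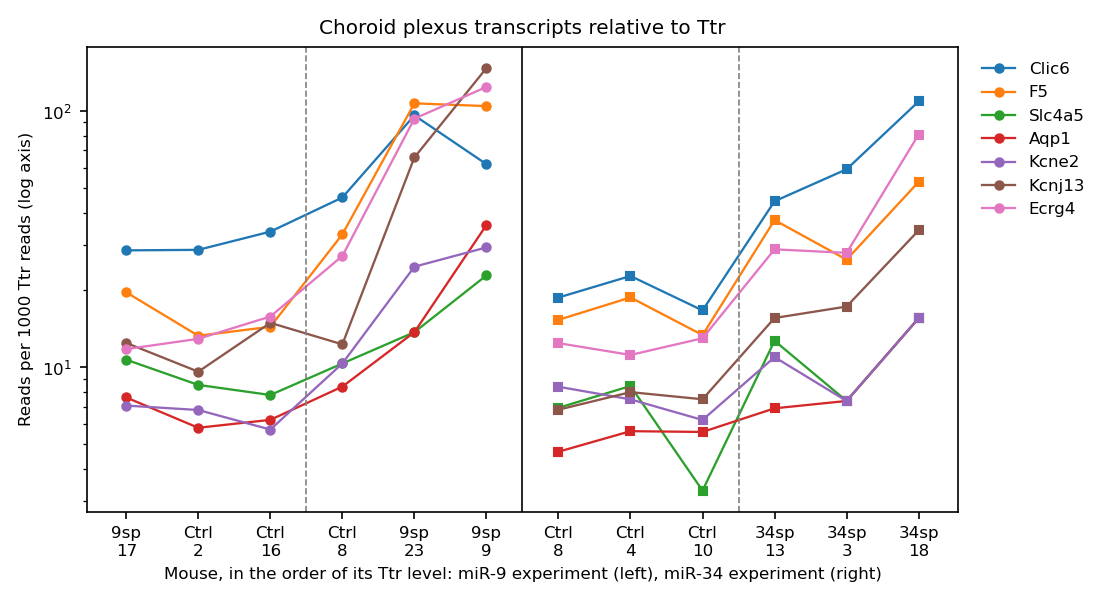
Reads of 7 choroid plexus transcripts per 1000 Ttr reads (y, log axis) in the 6 mice of the miR-9 experiment (circles, left) and the 6 of the miR-34 experiment (squares, right), each ordered by falling Ttr, with dashed lines between the sides. Clic6 lies between 28.6 and 33.8 in the 3 Ttr-high mice of the miR-9 experiment and between 45.9 and 95.9 in the 3 Ttr-low mice.

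In the miR-34 experiment, whose mice the rule did not use, Ttr had 2175, 1802 and 576 CPM in GFP Ctrl 8, 4 and 10, and 102, 91.3 and 27.6 CPM in GFP-miR-34sp 13, 3 and 18. The same limit of 150 CPM would therefore divide these mice exactly by their label. For this reason the Ttr level and the sponge cannot be told apart there, whereas both treatments occur on each side in the miR-9 experiment. The edgeR test of GFP Ctrl against GFP-miR-34sp called 4 transcripts higher in GFP Ctrl at an adjusted p under 0.05 (0.0313% of 12787) and 0 lower. They were Ttr (adjusted p = 0.0266), Aqp1 (adjusted p = 0.0376), Tmem72 (adjusted p = 0.0361) and Slc16a8, a lactate transporter (adjusted p = 0.0426). Aqp1, Tmem72 and Slc16a8 had only 3 to 12 reads in each GFP-miR-34sp mouse. Their mean there was under the limit of 10 scaled reads, so they passed the filter through the GFP Ctrl mice alone. A higher level in GFP Ctrl was thus fixed by the filter, and their calls are given as values only. At an unadjusted p under 0.05 that test had 461 higher (3.61%) and 354 lower (2.77%), and DESeq2 called 36 and 1. Leaving out GFP Ctrl 10 raised the count of higher calls to 59, and leaving out any other mouse lowered it to 0 or 1.

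Of 48 choroid members tested in the miR-34 experiment, 46 were higher in GFP Ctrl, with a median log2 fold change of 0.92. The groups did not overlap in 33 of the 48, where 5.42% of all transcripts lay above in this way. These counts and the median include members that passed the filter through the GFP Ctrl mice alone, among them Aqp1, Tmem72, Slc16a8 and Steap1. Such members had to be higher in GFP Ctrl. The counts were not split by this, so how far they rest on such members was not tested. Aqp1 had 10.2, 10.2 and 3.22 CPM in GFP Ctrl 8, 4 and 10 and 0.709, 0.675 and 0.429 CPM in GFP-miR-34sp 13, 3 and 18. Here too the GFP Ctrl mouse with the least Ttr had the least Aqp1. A model of all 12 mice called 0 of 13192 transcripts as different between the 2 contrasts at an adjusted p under 0.05 (edgeR), with 289 (2.19%) and 238 (1.8%) at an unadjusted p under 0.05. For Aqp1 the unadjusted p of that difference was 0.516 (edgeR) and for Clic6 it was 0.928 (edgeR).

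**Figure D3:**
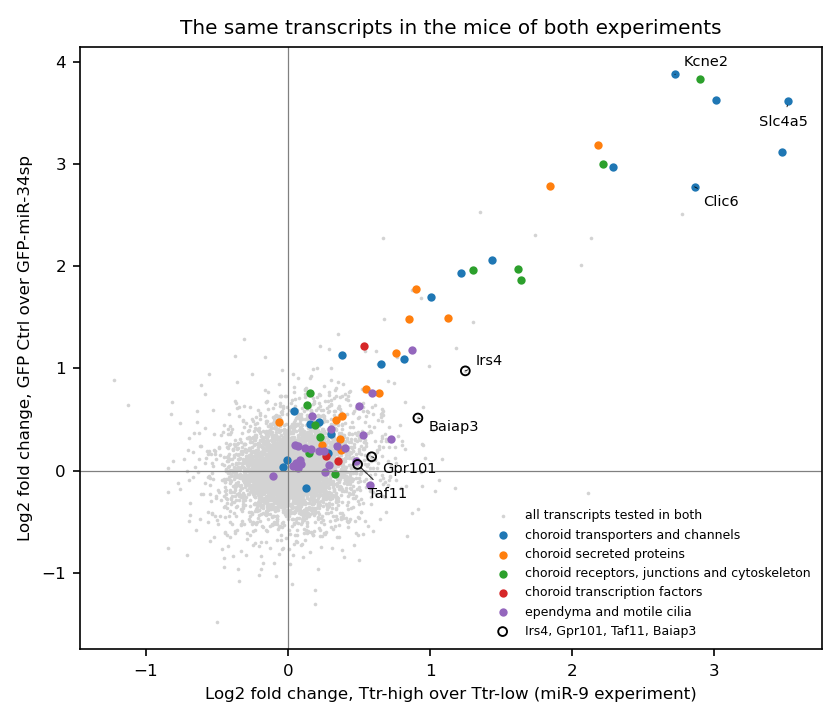
Log2 fold change between Ttr-high and Ttr-low mice of the miR-9 experiment (x) and between GFP Ctrl and GFP-miR-34sp mice of the miR-34 experiment (y), 1 point per transcript; colours mark the choroid and ependyma lists and open circles 4 transcripts described in the text. Slc4a5 lies at 3.52 and 3.62, and Taf11 at 0.49 and 0.06.

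Of the 5 transcripts of smallest p that lay above in all Ttr-high mice, Kcnj13 was the only choroid list member. The others were Taf11, Gpr101, Irs4 and Gfap. Taf11, a subunit of the general transcription factor TFIID, had 54.5, 52.5 and 54.5 CPM in the Ttr-high mice and 37.7, 37.7 and 39.2 CPM in the Ttr-low mice. Its log2 fold change was 0.49 ± 0.05 (SE; edgeR adjusted p = 0.0588) and DESeq2 called it (adjusted p = 5.31e-05), while the continuous fit of edgeR did not (adjusted p = 0.336). The level was thus nearly the same in GFP Ctrl 16 as in the mice with far more Ttr.

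Gpr101, an orphan G protein-coupled receptor, had 48.6, 45.8 and 40.2 CPM against 28.7, 31.7 and 31.6 CPM. This was a log2 fold change of 0.59 ± 0.06 (SE; edgeR adjusted p = 0.0588), called by DESeq2 (adjusted p = 1.41e-05). Irs4, an insulin receptor substrate, had 5.26, 4.99 and 5.57 CPM against 2.42, 2.08 and 1.93 CPM, with a log2 fold change of 1.25 ± 0.15 (SE; edgeR adjusted p = 0.0638). DESeq2 called Irs4 as well (adjusted p = 0.00527). Gfap, the intermediate filament of astrocytes, had 354, 333 and 341 CPM against 279, 278 and 267 CPM (log2 fold change 0.31 ± 0.04 SE, edgeR adjusted p = 0.152). DESeq2 called Gfap (adjusted p = 0.000368).

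Further transcripts with this step between the sides were picked after their values were seen. Trhr, the receptor of thyrotropin-releasing hormone, had 36.5, 29.5 and 33.2 CPM against 23.2, 24.1 and 21.7 CPM, and DESeq2 called it (adjusted p = 0.00498). Baiap3, a protein of dense-core vesicle traffic, had 29.1, 30.8 and 43.6 CPM against 17.4, 16.7 and 17.8 CPM and was called by DESeq2 (adjusted p = 1.41e-05). Its highest value was in GFP Ctrl 16, the Ttr-high mouse with the least Ttr. Trh, the hormone itself, had 7.55, 1.91 and 8.47 CPM against 1.37, 0.984 and 2.14 CPM, so that GFP Ctrl 2 overlapped with the low side. Fndc9, Lypd1 and Cdh4 had log2 fold changes of 1.04, 0.46 and 0.57 and were called by DESeq2 (adjusted p = 0.0456, 0.0206 and 0.0059). Several of these genes are known from the hypothalamus. No list of hypothalamic genes was drawn up, so none was counted.

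None of these transcripts was called in the miR-34 experiment by edgeR's test, which called the 4 named above. The same test had called none of them between the sides either, where their calls came from DESeq2. Taf11 had 40.5, 35.99 and 39.4 CPM in GFP Ctrl 8, 4 and 10 and 35.3, 37.1 and 39.4 CPM in GFP-miR-34sp 13, 3 and 18, and Trhr had a log2 fold change of -0.02. The unadjusted p of the difference between the contrasts was 0.000166 for Taf11 (edgeR adjusted p = 0.999) and 0.0516 for Trhr. Irs4 and Baiap3 had log2 fold changes of 0.98 and 0.51 in the same direction as between the sides (edgeR adjusted p = 0.693 and 0.629). Gfap had 334, 353 and 353 CPM in GFP Ctrl 8, 4 and 10 and 309, 328 and 277 CPM in GFP-miR-34sp 13, 3 and 18. These groups did not overlap (log2 fold change 0.19 ± 0.05 SE, edgeR adjusted p = 0.503). Gpr101 had a log2 fold change of 0.14 (edgeR adjusted p = 0.937).

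**Figure D4:**
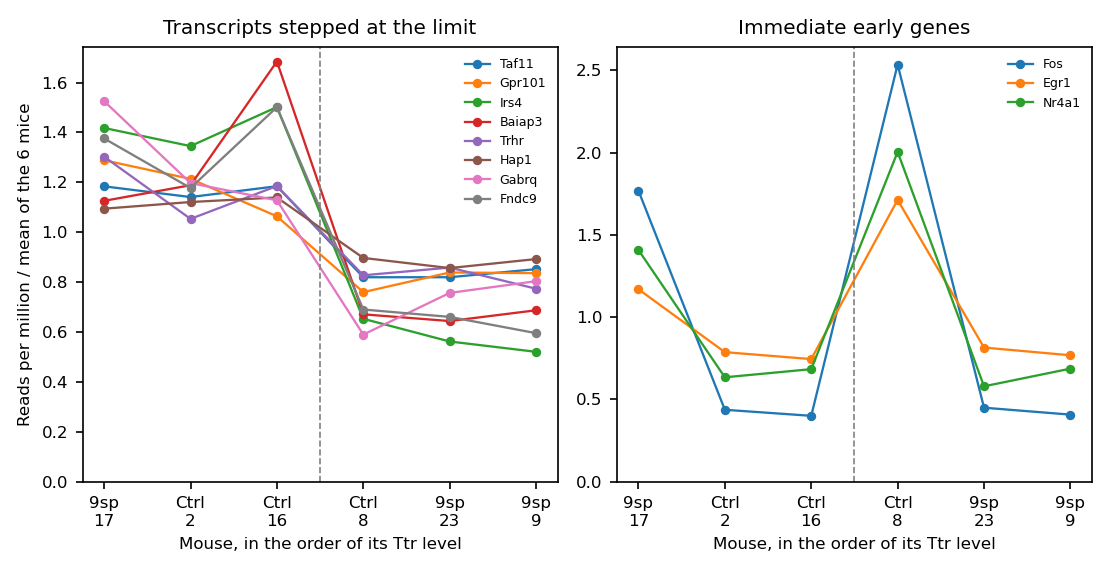
Level in each of the 6 mice (x, ordered by falling Ttr; 9sp is GFP-miR-9sp and Ctrl is GFP Ctrl) divided by the mean of the 6 mice (y), for 8 transcripts with a step at the limit between the sides (left) and 3 immediate early genes (right). Fos peaks at 39.6 CPM in GFP-miR-9sp 17 and at 56.8 CPM in GFP Ctrl 8, 1 mouse on each side.

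Ependymal cells line the ventricles beside the choroid plexus and carry motile cilia. Of 27 tested genes of ependyma and motile cilia, 25 had a positive log2 fold change (49.1% of all transcripts) with a median of 0.25, and 9 lay above without overlap (8.19%). At an unadjusted p under 0.05, 7 were higher (3.29%) and 0 lower (1.97%), and none was called by any of the 3 fits. Foxj1, the factor that drives motile cilia, had 14.8, 15.6 and 15.8 CPM against 11.6, 11.6 and 10.95 CPM (log2 fold change 0.40 ± 0.08 SE, edgeR adjusted p = 0.311). Foxj1 thus had its highest value in GFP Ctrl 16. Tmem212, a membrane protein of ependyma, had 1.74, 2.47 and 2.54 CPM against 1.37, 1.45 and 1.77 CPM, so that the sides overlapped. Its log2 fold change was 0.48 ± 0.23 (SE; edgeR adjusted p = 0.931) and moved between 0.07 (without GFP Ctrl 8) and 0.87 (without GFP-miR-9sp 17). Drc7, a component of motile axonemes that stood on no list, had 7.76, 7.08 and 4.46 CPM against 3.00, 1.97 and 2.97 CPM and was called by DESeq2 (adjusted p = 0.0122) and the continuous fit of edgeR (adjusted p = 0.0248).

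The other 4 transcripts outside the choroid lists that the continuous fit of edgeR called higher with Ttr were Prr32 (adjusted p = 0.0231), Myh7 (adjusted p = 0.0285), Col1a1 (adjusted p = 0.0285) and Car8 (adjusted p = 0.0427). Car8, a carbonic anhydrase-related protein, had 27.5 CPM in GFP-miR-9sp 17 and between 10.9 and 14.9 CPM in the other 5 mice. Onecut2, the transcript called lower with Ttr (edgeR adjusted p = 0.0285), had 14.6, 15.5 and 17.4 CPM against 17.7, 30.2 and 32.4 CPM. Both high values of Onecut2 were in GFP-miR-9sp mice, and the third GFP-miR-9sp mouse, 17, had the lowest level of all 6.

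Among 22 tested genes of meninges and stromal fibroblasts, which also occur in the stroma of the plexus, 21 had a positive log2 fold change with a median of 0.21, and 5 were higher and 0 lower at an unadjusted p under 0.05 (3.29% and 1.97% of all transcripts). Only 1 of the 22 lay above without overlap (8.19%), Col1a1, a collagen chain, with 33.99, 23.1 and 17.6 CPM against 17.3, 13.3 and 17.2 CPM. The summed level of this list ranged from 282 to 369 CPM in Ttr-high and from 216 to 307 CPM in Ttr-low mice, and GFP-miR-9sp 23 was the lowest. Dcn and Lum, matrix proteoglycans, had log2 fold changes of -0.20 ± 0.15 and 0.21 ± 0.26 (SE). The part of these cells in the values above was not tested. Plvap and Esm1, markers of fenestrated vessels, had log2 fold changes of -0.04 ± 0.12 and -0.06 ± 0.36 (SE). Genes of the blood-brain barrier (7 tested) and mural cells (4 tested) had medians of 0.09 and -0.12, with 0 at an unadjusted p under 0.05 in either direction. The endothelial genes Cldn5 and Flt1 had log2 fold changes of 0.06 and 0.05, and the pericyte genes Rgs5 and Kcnj8 of 0.00 and -0.15. The 7 tested genes of border macrophages and antigen presentation were all positive with a median of 0.38, again with 0 under that limit and 0 without overlap, while 15 microglial genes had a median of 0.00. The macrophage receptors Mrc1 and Lyve1 had log2 fold changes of 0.38 ± 0.20 and 0.64 ± 0.29 (SE), and the microglial genes P2ry12 and Tmem119 of 0.00 and 0.06. Of the 7 red blood cell genes none could be tested. Hba-a1 had 1 read and Alas2 had 3 reads over the 6 mice, and the other 5 had 0.

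**Figure D5:**
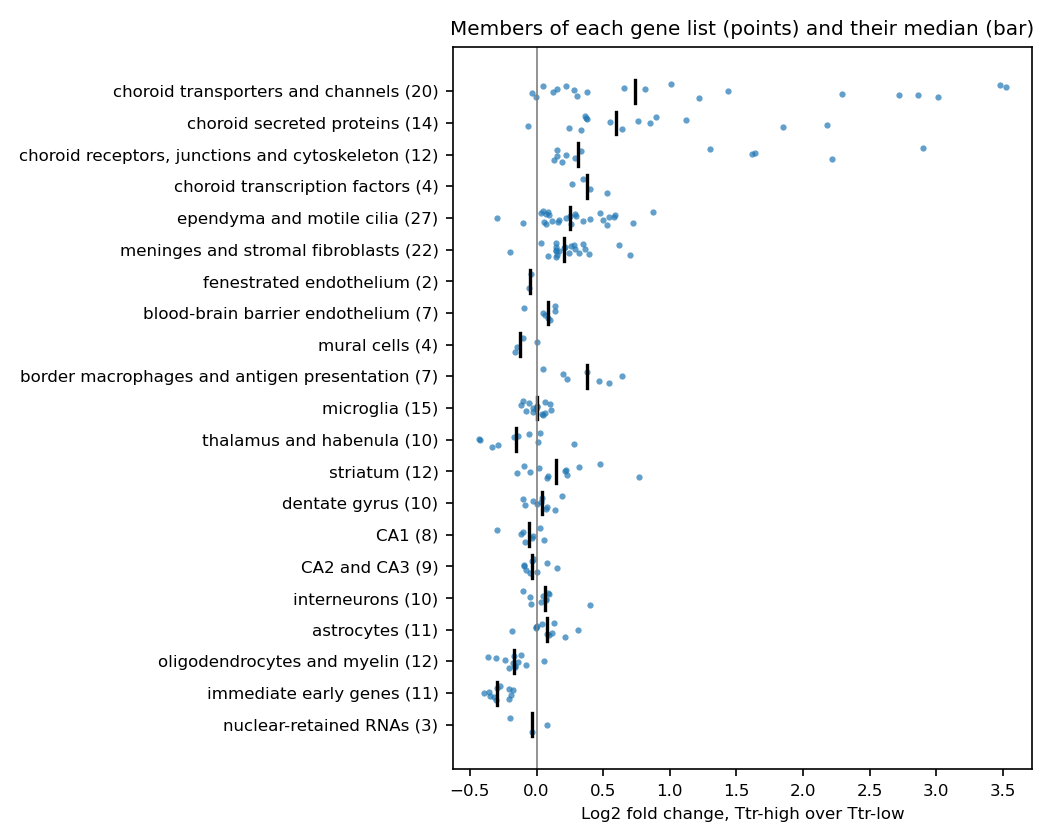
Log2 fold change between Ttr-high and Ttr-low mice (x) of each tested member (points) of each gene list (y, number of tested members in brackets), with the median of each list as a black bar. The transporters have a median of 0.74 and reach 3.52, and the immediate early genes have a median of -0.30.

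Lists of neighbouring brain regions and of hippocampal cells followed, with counts of members at an unadjusted p under 0.05, where 3.29% of all transcripts were higher and 1.97% lower. Of 12 tested striatal genes, 4 were higher and 0 lower, 3 had a negative fold change and 5 lay above without overlap (8.19% of all transcripts), with a list median of 0.15. Adora2a, an adenosine receptor, had 3.01, 2.70 and 4.54 CPM against 1.84, 1.56 and 2.40 CPM (log2 fold change 0.77 ± 0.27 SE, edgeR adjusted p = 0.889). Drd2, a dopamine receptor, overlapped with 3.16, 3.82 and 3.23 CPM against 3.42, 3.07 and 2.61 CPM (log2 fold change 0.08 ± 0.16 SE, edgeR adjusted p = 0.978). Thalamus and habenula had a median of -0.15 over 10 genes with 1 lower, and Prkcd and Lhx9 had -0.42 ± 0.23 and 0.28 ± 0.25 (SE). Genes of the dentate gyrus (10), CA1 (8) and CA2 and CA3 (9) had medians of 0.04, -0.06 and -0.03, and 2 of the CA1 genes were lower. Log2 fold changes were -0.02 for Prox1 and 0.14 for C1ql2 of the dentate gyrus, 0.03 for Wfs1 and 0.05 for Fibcd1 of CA1, and -0.05 for Amigo2 and -0.02 for Rgs14 of CA2. The 10 interneuron genes had a median of 0.06, with 1 higher. Gad1, the GABA-synthesising enzyme, had 592, 563 and 563 CPM against 553, 563 and 571 CPM, and its partner Gad2 had a log2 fold change of 0.07 ± 0.04 (SE). Of 11 astrocyte genes 3 were higher (3.29% of all transcripts), among them Gfap and the water channel gene Aqp4 (log2 fold change 0.11 ± 0.04 SE), with a median of 0.08. The 3 nuclear RNAs had a median of -0.04, with 1 lower, Neat1, at -0.20 ± 0.05 (SE; edgeR adjusted p = 0.653), and Malat1 at -0.04 ± 0.09 (SE).

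Myelin genes had the opposite sign. Of 12 tested genes of oligodendrocytes, 11 had a negative log2 fold change with a median of -0.17, 2 were lower at an unadjusted p under 0.05 (1.97% of all transcripts), and in none did the sides separate. Mog, a myelin surface protein, had 49.8, 50.9 and 60.3 CPM against 70.3, 62.8 and 54.6 CPM (log2 fold change -0.30 ± 0.08 SE, edgeR adjusted p = 0.669). Mbp, the major myelin basic protein, had a log2 fold change of 0.05. The 5 transcripts of smallest p that lay below in all Ttr-high mice were Tle4, Diras2, Nxph3, S1pr5 and Tmem178. Their log2 fold changes were between -0.51 (Nxph3) and -0.16 (Tmem178), and the edgeR adjusted p was 0.508 for Tle4 and 0.512 or more for the other 4. Tle4, a corepressor, had 130, 139 and 131 CPM against 157, 148 and 141 CPM. S1pr5, a sphingosine phosphate receptor of oligodendrocytes, had 18.4, 20.2 and 21.1 CPM against 25.3, 21.2 and 21.5 CPM.

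Immediate early genes are switched on in neurons within minutes of activity. All 11 tested had a negative log2 fold change, with a median of -0.30, and none separated the sides. Fos had 39.6, 9.79 and 8.96 CPM against 56.8, 10.1 and 9.13 CPM, and Nr4a1 had 116, 52.1 and 56.1 CPM against 164, 47.6 and 56.4 CPM. The high values of both genes were in GFP-miR-9sp 17 and GFP Ctrl 8, 1 mouse on each side. Fosb had 20.3, 14.9 and 12.9 CPM against 28.2, 15.2 and 15.4 CPM. Without GFP Ctrl 8 the log2 fold change of Fos was 2.02 and that of Nr4a1 was 1.12, in place of -0.39 and -0.28 with all 6 mice. Both GFP Ctrl mice left were then Ttr-high. With treatment as a term, these 2 values therefore compared GFP-miR-9sp 17 alone with GFP-miR-9sp 23 and 9.

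Within each treatment, the 1 mouse on one side was set against the 2 on the other, with no test. Of the 50 choroid members, 42 were higher on the Ttr-high side in both treatments, where 30.2% of all transcripts were. The log2 ratio of Clic6 was 3.83 within GFP-miR-9sp and 1.83 within GFP Ctrl, and that of Ttr was 5.36 and 2.44. For Taf11 the ratio was 0.50 in both. The sponge term itself had 352 transcripts higher and 327 lower at an unadjusted p under 0.05 (edgeR) with the side in the model, and 332 and 298 without it.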

How the data were processed

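Whole hippocampi of 12 mice were sequenced, 1 mouse per sample. The authors aligned the reads (STAR and mm10 according to the submitters' processing notes; the published methods name mm9) and deposited raw read counts per RefSeq transcript, with the transcript length in bases in another column. Per the file headers, no normalization was applied to the counts. Symbols were joined from RefSeq for 32422 of 32850 transcripts. Mice were placed on the sides by Ttr CPM (limit 150). Transcripts with a mean of more than 10 scaled reads were tested between the sides, without Ttr, by edgeR 4.0.16 (glmQLFit, TMM, treatment as a term, R 4.3.3), with Benjamini-Hochberg adjustment over all transcripts. DESeq2 1.42.0 and a fit on log2 Ttr CPM were alternatives, and the scripts were tested on simulated data. The sides, the genes and the lists were chosen with earlier results of these data known. Named genes were Ttr, the 5 transcripts of smallest p without overlap in each direction, the 6 choroid members of highest level and the first 2 symbols of each other list, since no transcript was called. All others named, and the 4 promoters (the rule asked for called members), were chosen after their values were seen. CPM divides by total reads on transcripts. Mice are separate animals, and p-values describe the spread between these mice.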

Additional observations from a re-analysis of the deposited data

How the results depend on the processing

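No paired analysis was possible because GFP-miR-9sp and GFP Ctrl mice share no mouse number. The count of transcripts higher in Ttr-high mice at an adjusted p under 0.05 was 0 and became 2 without the treatment term, 21 with DESeq2, 2 with scaling to total counts only, 93 with every transcript of at least 1 read (20869 tested) and 23 with the log2 Ttr level. It was 0 with RLE size factors, a mean above 100 reads or summing by symbol, and 0 to 15 with 1 mouse left out, the highest without GFP Ctrl 16 (5 without GFP Ctrl 2, 4 without GFP Ctrl 8). The count lower was 0 and became 26 with at least 1 read and 1 with the log2 Ttr level, and 0 to 14 with 1 mouse left out (14 without GFP-miR-9sp 17, 1 without GFP Ctrl 8). In the miR-34 experiment the 4 higher calls became 36 with DESeq2, 0 with a mean above 100 reads and 0 to 59 with 1 mouse left out (59 without GFP Ctrl 10), and the 0 lower calls became 1 with DESeq2 and 0 to 1 with 1 mouse left out. With TMM-scaled reads, added after seeing the data, 638 transcripts in place of 369 lay below without overlap and 820 in place of 1100 above, of which 23 in place of 24 were choroid members. Of the 50 choroid members, 43 to 48 were higher with 1 mouse left out, and their median log2 fold change was 0.34 without GFP-miR-9sp 17 and 0.86 without GFP Ctrl 8. Without GFP-miR-9sp 17 the sides were compared only between GFP Ctrl 2 and 16 and GFP Ctrl 8. Without GFP Ctrl 8 they were compared only between GFP-miR-9sp 17 and GFP-miR-9sp 23 and 9. The counts and medians of these 2 fits therefore repeat comparisons within 1 treatment, with 1 mouse on one side. The cause of the other shifts was not tested.

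The sign of some uncalled values turned. Atp2b3 was 0.0095 with total counts only. With the log2 Ttr level Fos was 0.12, Egr1 0.0050, Nr4a1 0.056, Enpp2 0.0027 and Esm1 0.035. Rgs5 was -0.025 without the treatment term, -0.0023 with DESeq2 or RLE size factors, -0.0018 with at least 1 read and -0.0092 with the log2 Ttr level. P2ry12 was -0.0017 with DESeq2, -0.0016 with RLE size factors and -0.0011 with at least 1 read, and Wfs1 was -0.017 without the treatment term. With 1 mouse left out, the ranges that crossed 0 were -2.60 to 2.02 for Fos, -1.16 to 0.53 for Egr1, -1.60 to 1.12 for Nr4a1, -1.03 to 0.38 for Fosb, -0.070 to 0.059 for Atp2b3, -0.070 to 0.0072 for Slc12a2, -0.20 to 0.069 for Enpp2, -0.077 to 0.40 for Lum, -0.23 to 0.13 for Plvap, -0.65 to 0.49 for Esm1, -0.10 to 0.23 for Cldn5, -0.13 to 0.13 for Rgs5, -0.00032 to 0.72 for Mrc1, -0.060 to 0.061 for P2ry12, -0.32 to 0.27 for Prox1, -0.20 to 0.49 for C1ql2, -0.039 to 0.098 for Wfs1, -0.055 to 0.16 for Fibcd1, -0.48 to 0.35 for Amigo2, -0.079 to 0.050 for Rgs14 and -0.16 to 0.088 for Malat1. Of the other settings of named transcripts, 1199 kept direction and side of the threshold and 124 passed it where the main test had not. Several choroid genes had few reads in Ttr-low mice, which limits the precision of their fold changes.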
